A study of Mus musculus with 24 samples.

Results

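The daily time course of gene expression in wild-type (WT) liver was described from 12 of the 24 arrays of the series, chosen by their WT label. RNA came from livers of male mice, 20 weeks old, of strain Reverbalpha/beta Alb Cre- on a c57Bl6/J background. These mice lack the albumin-driven Cre recombinase (Alb Cre) that the other genotype of the series carries, and the labels do not describe their Rev-erb alleles further. Livers were sampled at ZT0, ZT4, ZT8, ZT12, ZT16 and ZT20, with ZT in hours after lights on. Each time had 1 RNA sample on 2 Illumina bead arrays, technical replicates by their labels, and averaging these pairs left 6 values. How many animals stand behind an RNA sample, and the light schedule, are not given in the sources used here. Day means ZT0 to under ZT12 and night means ZT12 to under ZT24 in what follows. The 12 arrays of the double knockout (DKO, strain Reverbalpha/beta Alb Cre+, same sex, age and background) entered the fit with rhythm terms of their own, to estimate the spread, and are not described.

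The circadian clock of liver cells is a transcriptional feedback loop. The activators BMAL1 (gene Arntl) and CLOCK bind E-box sequences and drive the genes of their own repressors, the PER and CRY proteins, and of the nuclear receptors REV-ERB alpha and beta (Nr1d1 and Nr1d2), which repress Arntl through ROR response elements (RORE). D-box factors such as DBP form a further arm of the loop, and in liver the clock, together with feeding, times genes of lipid, glucose and heme metabolism.

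On the WT arrays 34.9 to 40.2% of 25697 probes were detected above the negative controls, with a median unprocessed signal of 245 to 284 units. The 2 arrays of a time correlated at 0.9904 to 0.9943. The SD of a single array within such a pair was 0.165 to 0.216 on the log2 scale. It is a smaller measure than the SD of the difference between the 2 arrays, so it cannot be set directly against the SD between times below. ZT0 and ZT4 lay on slide 2 and ZT8 to ZT20 on slide 3. The SD of the difference between times over all probes kept was 0.337 to 0.468 for times of the same slide and 0.465 to 0.532 for times of different slides. With 1 RNA sample per time, p-values rest on the 12 averages of the series alone. They only set the size of the WT 24 h curve against the scatter of these averages about the curves of both genotypes. The number of times limits the precision. Of 7 hepatocyte markers on the array 6 were detected, Tat was not, and their summed intensity varied 1.05-fold over the times. Sums of other markers varied more, 1.67-fold for Kupffer cells (highest at ZT16), 1.87-fold for neutrophils (highest at ZT12), 2.46-fold for red cells (highest at ZT0, lowest at ZT16) and 3.77-fold for exocrine pancreas (highest at ZT4, lowest at ZT20). Of the 2 exocrine pancreas markers on the array Cela1 was detected and Cpa1 was not, so that sum follows 1 gene. Of the markers of lymphocytes and adipocytes 0 were detected. In bulk liver, fewer cells of a type and less RNA per cell cannot be told apart.

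Of 7272 genes tested, 13 were rhythmic over the WT day (0.179% of the genes, limma moderated F test of a 24 h harmonic, Benjamini-Hochberg adjusted p under 0.05). Their fitted peaks lay in 2 stretches of the day. Dbp, Nr1d2, Ciart and Fam110c peaked from ZT 9.82 to ZT 13.0, and Clpx, Ppp1r3c, Tubb2b, Elovl3, Dtx4, Mad2l2, Smagp, Gas7 and Cnp peaked from ZT 22.6 to ZT 2.41. By the day and night rule 7 of the 13 peaked by day and 6 by night. Amplitude, the peak of the fitted log2 curve minus its daily mean, ran from 0.76 to 3.39, and the 24 h curve fitted at least 92.5% of the variance of each gene over the 6 times. Just outside the threshold lay Tubb4b, Gnat1 and Spon2, each with a limma adjusted p of 0.051. With slide as a fixed block limma called 0 genes (708 with an unadjusted p under 0.05), and without the DKO values it called 0 (914 unadjusted). The count was 4 without ZT0, 8 without ZT8 and 2 without ZT12, and the split of day and night calls moved with the scaling, to 38 and 85 under median scaling, 20 and 29 with the authors' processed values, and 18 and 25 without background correction.

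The clock lists held 21 genes, of which 16 passed the filter on dim probes and were tested. Since a gene could pass through the times at which it was high, in WT or in DKO, the counts over those that passed are a description. Npas2 and Timeless were detected on both arrays at 0 WT times and passed through the DKO arrays alone. Both are kept in the counts and medians below. Of the 16, 3 were rhythmic (Dbp, Nr1d2, Ciart), and 13 (81.2%) had an unadjusted p under 0.05, against 13.8% of all genes, among them Npas2, which was detected on 0 of 12 arrays. Their median amplitude was 1.13, against 0.19 over all genes, and on slide 3 alone, from ZT8 to ZT20, it was 0.74 against 0.22. With slide as a fixed block 8 had an unadjusted p under 0.05 (50%, against 9.74%). Between some pair of WT times 13 of the 16 were at least 2-fold apart with no overlap of arrays (81.2%), against 9.57% of all genes. On slide 3 alone this held for 10 (62.5%), against 4.28%.

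Among the repressors of the loop, Nr1d1 had the earliest peak in the fit over all 6 times. Its normalized log2 intensity was 7.19, 10.50, 9.41, 9.08, 7.19 and 6.41 from ZT0 to ZT20, high from ZT4 to ZT12 and low from ZT16 to ZT0. The fitted curve peaked at ZT 7.18 ± 0.59 (SE) with an amplitude of 1.91 ± 0.29, and it did not pass (limma adjusted p = 0.0678). A second Nr1d1 probe gave an amplitude of 1.73 and a peak at ZT 7.26. Nr1d2, its paralog, was at 7.70, 9.44, 10.45, 10.91, 9.62 and 8.35, a smooth curve whose arrays at ZT12 (10.89 and 10.93) lay above those of every other time. It peaked at ZT 10.6 ± 0.28 with an amplitude of 1.55 ± 0.12 (limma adjusted p = 0.00345). Ciart, which encodes a repressor of the BMAL1 and CLOCK complex, was at 6.40, 7.21, 10.06, 9.94, 8.80 and 7.28 and was not detected on either array at ZT0. Its ZT8 level was at least 7.81-fold above the ZT0 floor, its fitted peak lay at ZT 11.3 ± 0.37 with an amplitude of 1.94 ± 0.19 (limma adjusted p = 0.0104), and a second probe gave 2.00 and ZT 11.5.

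The Period genes were low at ZT0 and ZT4, the times of slide 2, and did not pass. Per3 was at 5.30, 5.97, 7.68, 7.57, 6.92 and 5.97 and was detected from ZT8 to ZT16 alone, at ZT8 at least 1.5-fold above the floor (amplitude 1.22 ± 0.20, peak at ZT 11.3). Per2 was at 9.71, 9.98, 12.14, 11.36, 12.33 and 10.79, with separate highs at ZT8 and ZT16 and a lower ZT12 between them. Per1, also a glucocorticoid-responsive gene, was at 7.57, 7.14, 9.52, 9.66, 8.34 and 8.60. Cry2, which encodes a partner of the PER proteins, was at 6.42, 7.02, 7.53, 7.85, 7.57 and 7.45, not detected at ZT0 and at ZT12 at least 1.68-fold above the floor. On slide 3 alone the amplitude was 0.951 for Per3, 0.555 for Per2, 0.635 for Per1 and 0.269 for Cry2. Over the 6 times it was 1.22, 1.20, 1.05 and 0.598. For the low values of these genes at ZT0 and ZT4 slide and time cannot be told apart. Bhlhe40, an E-box repressor, was at 11.53 and 11.55 at ZT0 and ZT4 and at 13.07, 12.81, 13.05 and 12.73 from ZT8 to ZT20. All 4 high times of Bhlhe40 were those of slide 3, where its amplitude was 0.09, against 0.81 over the 6 times, so slide and time cannot be told apart for it. Timeless had an amplitude of 0.30 ± 0.17 and was detected on at most 1 array per time.

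The D-box factors held the largest amplitude of all 7272 genes. Dbp, an activator at D-boxes, was at 8.23, 12.33, 14.80, 14.44, 11.50 and 9.29, and the 2 arrays of each time differed by less than the gap between any pair of times. The ZT8 value was 94.8-fold above the ZT0 value. It peaked at ZT 9.82 ± 0.29 with an amplitude of 3.39 ± 0.26 (limma adjusted p = 0.00345), and from ZT8 to ZT20 alone the amplitude was 2.99. Tef, a related activator, was at 7.91, 9.57, 11.23, 11.32, 10.75 and 9.89, with a fitted peak at ZT 11.9 ± 0.55 and an amplitude of 1.55 ± 0.22 (limma adjusted p = 0.0641). A second Tef probe gave an amplitude of 0.64 and a peak at ZT 12.4. Nfil3, a repressor at D-boxes, ran the other way in level, at 12.01, 12.80, 10.26, 11.31, 12.20 and 12.28, lowest at ZT8 and highest at ZT4 (amplitude 0.79 ± 0.29, peak at ZT 21.9 ± 1.4, limma adjusted p = 0.393).

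Of the positive limb, Arntl and Clock were lowest at ZT8, where Dbp was highest, and neither passed. Arntl was at 9.50, 9.65, 5.64, 6.01, 8.60 and 9.43, and was detected on 0 of 4 arrays at ZT8 and ZT12 and on all others. The ZT4 level was at least 7.71-fold above the floor at ZT8. It peaked at ZT 22.5 ± 0.64 with an amplitude of 2.12 ± 0.36 (limma adjusted p = 0.0854), and of 2.05 on slide 3 alone, so the profile was about as deep without ZT0 and ZT4. Clock, which encodes the partner of BMAL1, was at 11.49, 11.36, 10.18, 10.35, 11.24 and 11.13 (amplitude 0.61 ± 0.14, peak at ZT 22.4 ± 0.91), with the same low times at a smaller size. Npas2, an alternative partner, was detected on 0 of 12 arrays, so no level is given. Rora, an activator at ROR response elements, had an amplitude of 0.13 ± 0.14.

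**Figure D1:**
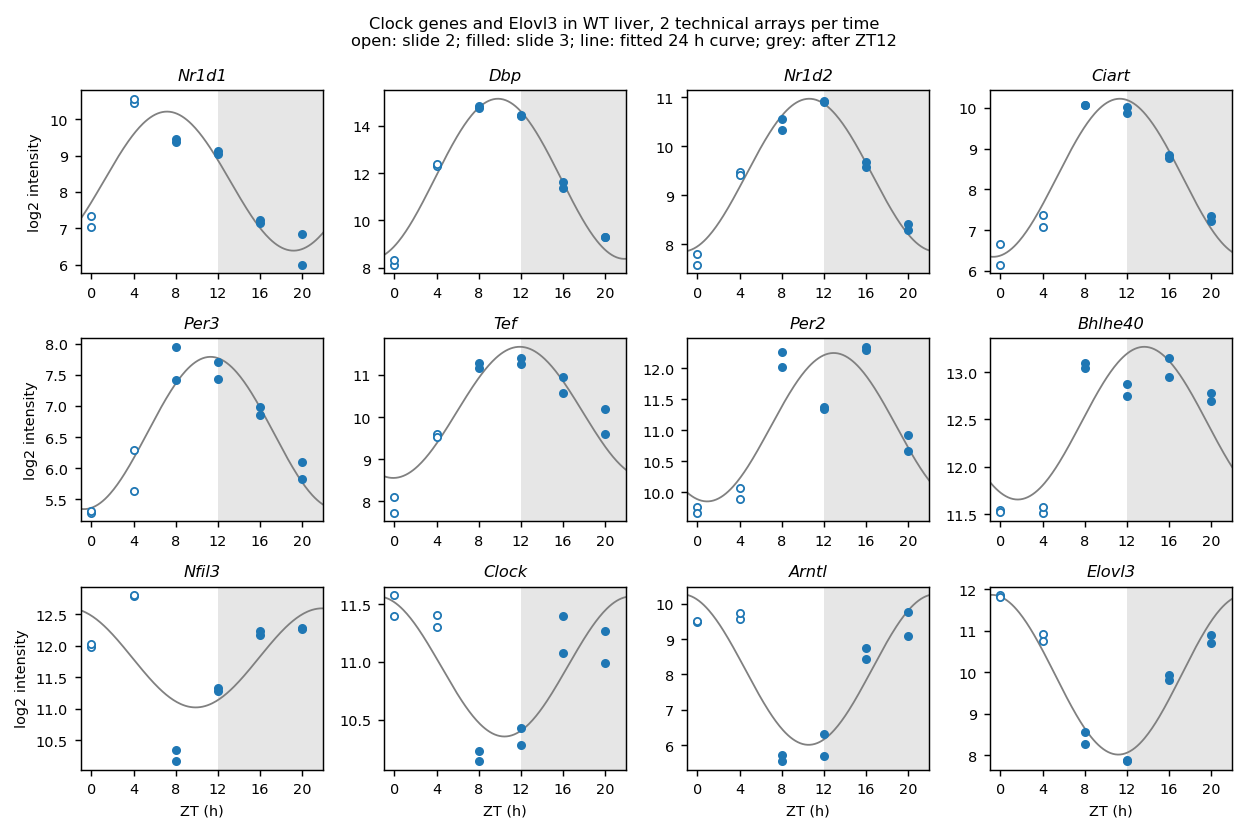
Normalized log2 intensity (vertical axis) against ZT in hours for 11 clock genes and Elovl3 in WT liver, with 1 point per array, open for slide 2 and filled for slide 3, the fitted 24 h curve as a line, and grey from ZT12 on. Dbp, Nr1d2 and Ciart are highest at ZT8 and ZT12, Arntl, Clock and Elovl3 are lowest there, and Bhlhe40 steps between the slides.

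Set in order of fitted peak, the clock genes ran from Nr1d1 (ZT 7.18) over Dbp (9.82), Nr1d2 (10.6), Per3 and Ciart (both 11.3), Tef (11.9), Per1 (12.3), Cry2 and Per2 (both 12.9) to Bhlhe40 (13.6), and then Nfil3 (21.9), Clock (22.4) and Arntl (22.5). The gap of 2.64 h between Nr1d1 and Dbp was 4.02 times its combined SE. The gap of 0.782 h between Dbp and Nr1d2 was 1.94 times its SE, and from Nr1d2 to Tef each gap between neighbours was at most 1.03 times its SE. With samples 4 h apart, those neighbours do not differ beyond the error of the fit. The order itself depends on the slide. With slide as a fixed block the fitted peaks of Nr1d1 and Dbp lay at ZT 8.53 and ZT 9.30, and on slide 3 alone at ZT 8.63 and ZT 9.40, so the gap between them was smaller than the one above. With the block Per1 peaked at ZT 7.44, ahead of Nr1d1, Bhlhe40 at ZT 9.36, Nfil3 at ZT 17.4 and Clock at ZT 18.8.

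Promoters were read for the clock genes and the rhythmic genes. The peaks of the rhythmic genes fall in the 2 stretches given above, while some clock genes, such as Nr1d1 (ZT 7.18), peaked outside them. Of the 26 genes read, 20 had a window from 250 bases before to 50 after a start site in RefSeq (GRCm38.p6). Searched on both strands, the E-box CACGTG was in a window of 4 of the 20 (Ciart, Per1, Tef and Ppp1r3c), against 8.09% of 27025 genes. The D-box TTATGTAA or TTACGTAA was in 2 (Per3 and Timeless), against 1.23%, and the RORE core TAGGTCA in 2 (Arntl and Nfil3), against 2.97%. A match is a description of the sequence and not a shown binding site. The stretches around the matches of 6 clock genes are shown 5′ to 3′ on the strand of the gene, with the motif in capitals, and in Nfil3 the core reads on the opposite strand.
Ciart E-boxes, chr3:95882243-95882368, minus strand: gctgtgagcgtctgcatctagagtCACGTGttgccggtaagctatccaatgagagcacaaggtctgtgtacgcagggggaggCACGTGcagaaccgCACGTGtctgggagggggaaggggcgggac
Per1 E-box, chr11:69098759-69098812, plus strand: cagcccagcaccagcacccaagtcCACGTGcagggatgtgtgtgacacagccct
Tef E-box, chr15:81802522-81802575, plus strand: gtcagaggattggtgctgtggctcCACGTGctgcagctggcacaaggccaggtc
Per3 D-boxes, chr4:151044792-151044894, minus strand: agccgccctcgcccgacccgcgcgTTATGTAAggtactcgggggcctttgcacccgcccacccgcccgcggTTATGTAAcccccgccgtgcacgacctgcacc
Arntl RORE core, chr7:113207530-113207559, plus strand: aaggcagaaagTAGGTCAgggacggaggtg
Nfil3 RORE core, chr13:52981040-52981075, minus strand: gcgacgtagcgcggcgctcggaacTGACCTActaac
Ciart carried 3 E-boxes within 126 bases, and Per3 carried 2 copies of the same D-box. Ppp1r3c, whose window also held an E-box, peaked at ZT 22.6, and Dbp, Nr1d1, Nr1d2 and Cry2 held 0 matches to any of these motifs in their windows.

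The largest amplitude among the rhythmic genes that peaked around the change from night to day was that of Elovl3, an elongase of very long chain fatty acids. It was at 11.84, 10.83, 8.41, 7.87, 9.87 and 10.80, with 11.85 and 11.82 on its ZT0 arrays and 7.88 and 7.85 on its ZT12 arrays. It peaked at ZT 23.2 ± 0.41 with an amplitude of 1.93 ± 0.21 (limma adjusted p = 0.0212), with a 15.7-fold difference between ZT0 and ZT12. Tubb2b, a beta-tubulin, was at 12.23, 11.81, 9.38, 8.85, 10.78 and 11.90 (amplitude 1.77 ± 0.20, peak at ZT 23.1, limma adjusted p = 0.0248). Ppp1r3c, the glycogen-targeting subunit of protein phosphatase 1 also called PTG, was at 14.90, 14.39, 12.24, 11.88, 13.86 and 14.74 (amplitude 1.62 ± 0.20, peak at ZT 22.6, limma adjusted p = 0.0317). All 3 were lowest at ZT12 and highest at ZT0, with no overlap between the arrays of the 2 times.

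Clpx, a subunit of a mitochondrial protease that acts on the heme synthesis enzyme ALAS1, was at 13.05, 12.56, 10.67, 10.97, 11.83 and 12.99, lowest at ZT8 (amplitude 1.29 ± 0.12, peak at ZT 22.6, limma adjusted p = 0.0104). A second Clpx probe gave 1.23 and ZT 23.5. Dtx4, a ubiquitin ligase of the Deltex family, was at 8.50, 8.33, 7.0, 6.63, 7.03 and 8.40, not detected at ZT12, with ZT0 at least 3.33-fold above the floor. Mad2l2, a subunit of DNA polymerase zeta, was at 9.63, 9.02, 8.29, 7.95, 8.11 and 8.95, and Smagp, a small transmembrane protein of cell contacts, at 11.99, 11.72, 10.79, 10.26, 10.50 and 11.05. Both lay lowest at ZT12, with amplitudes of 0.83 ± 0.08 and 0.87 ± 0.08 and peaks at ZT 0.34 and ZT 1.25. Gas7, a cytoskeletal adaptor, was at 7.77, 8.04, 7.08, 6.45, 6.27 and 7.32, with ZT4 at least 2.58-fold above the floor. Cnp, a cyclic nucleotide phosphodiesterase known from myelin, was at 8.24, 8.41, 7.42, 6.95, 6.86 and 7.28, but a second Cnp probe gave an amplitude of 0.06. Fam110c was detected at ZT12 and ZT16 alone, with ZT12 at least 1.08-fold above the floor (amplitude 0.76 ± 0.09, peak at ZT 13.0).

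**Figure D2:**
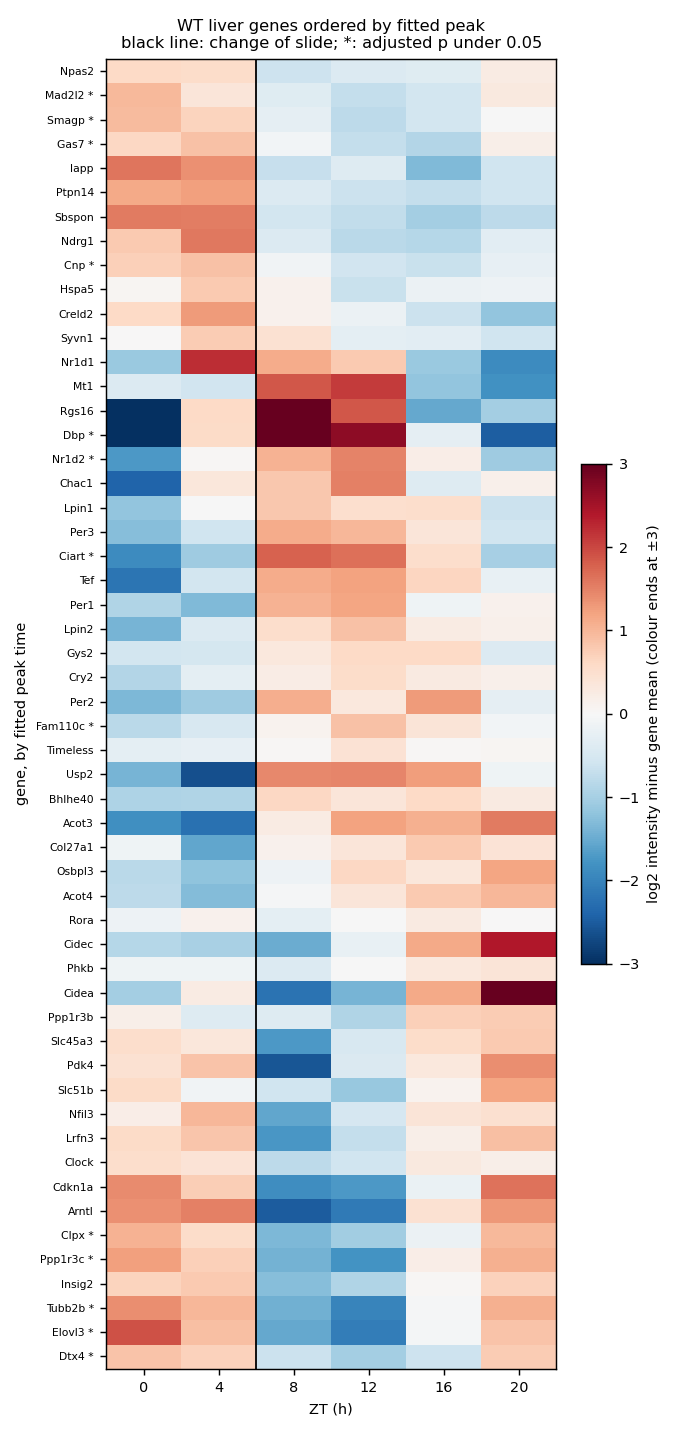
Heat map of WT log2 intensity minus the mean of each gene (colour, ends at ±3) at the 6 times (columns, ZT in hours) for clock, rhythmic, fatty acid, glycogen and ER stress genes and the largest amplitudes per peak window, ordered by fitted peak from top to bottom. The black line marks the change of slide and an asterisk marks the 13 rhythmic genes, which sit in the blocks that peak near ZT12 and around ZT0.

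The peaks of the 1001 genes with an unadjusted p under 0.05 were unevenly spread. The 4 h windows centred on ZT0 and ZT12 held 257 (25.7%) and 251 (25.1%) of them, and those on ZT4, ZT8, ZT16 and ZT20 held 120, 127, 139 and 107. Over all 7272 genes the ZT0 and ZT12 windows held 19.5% and 19.3% of the fitted peaks. With slide as a fixed block the 6 windows from ZT0 to ZT20 held 155, 80, 108, 153, 89 and 123 of 708. By the day and night rule 513 peaked by day (7.05% of genes tested) and 488 by night (6.71%). Of 696 genes at least 2-fold apart between WT times with no overlap of arrays (9.57%), ZT20 was the highest time for 158 and ZT16 for 54, and ZT0 was the lowest time for 195.

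The change of slide between ZT4 and ZT8 bears on these fits. All 13 rhythmic genes kept an amplitude of 0.52 to 2.99 from ZT8 to ZT20 alone, none under 0.5 of that over 6 times, and their peaks moved by at most 1.3 h. With the fixed block their highest limma adjusted p was 0.468 and that of Dbp was 0.0695. Of the 1001 genes, 841 (84%) had a slide 3 peak within 3 h of the peak over 6 times, against 56.5% of all genes. For 151 (15.1%, against 10.5% of all genes) the slide 3 amplitude was under 0.5 of that over 6 times. Of the clock list genes with such a p this held for 3 of 13 (23.1%). By peak window it held for 19.5% around ZT0, 29.2% around ZT4, 14.7% around ZT12 and 20.9% around ZT16. It held for 0 of 127 around ZT8 and 0 of 107 around ZT20. The slide 3 values were also part of the fit that selected the 1001 and the 13 genes. Agreement between these fits is therefore partly built in and cannot serve as a check on the slide. The 4 genes named for the ZT4 window, Iapp, Ndrg1, Ptpn14 and Sbspon, were all high at ZT0 and ZT4. Sbspon was at 8.12, 8.10, 6.0, 5.82, 5.53 and 5.77 and was not detected from ZT8 on. Iapp, a hormone of pancreatic beta cells, was at 8.11 and 7.87 at ZT0 and ZT4 and was not detected later. The exocrine pancreas sum was 5090 and 6500 units at ZT0 and ZT4, against 1730 to 2970 later (1 of 2 markers detected, Cpa1 not), and its part in these values was not tested. For genes with such steps slide and time cannot be told apart.

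**Figure D3:**
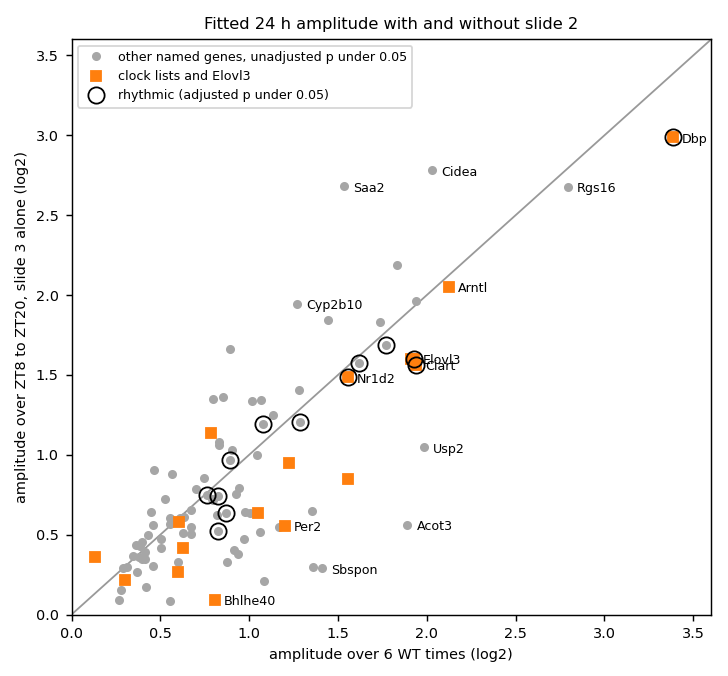
Fitted 24 h amplitude (log2) over the 6 WT times (horizontal axis) against that over ZT8 to ZT20 on slide 3 (vertical axis), 1 point per named gene with an unadjusted p under 0.05 or from the clock lists and Elovl3, with a line where both are equal. The 13 ringed rhythmic genes lie near the line, while Bhlhe40 and Sbspon lie far below it.

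Among the other gene lists, that of heme, NAD and further clock output genes had 12 members tested, 1 rhythmic (Clpx). Of the 12, 9 had an unadjusted p under 0.05 (75%, against 13.8% of all genes) and 4 with the slide block (33.3%, against 9.74%). Usp2, a ubiquitin protease with a clock-driven isoform, was at 9.09, 7.85, 11.94, 11.95, 11.75 and 10.37 (amplitude 1.98 ± 0.35, peak at ZT 13.3, limma adjusted p = 0.0979). Nampt, the rate-limiting enzyme of NAD salvage, was at 8.81, 9.03, 10.01, 10.26, 10.39 and 10.08, and Alas1, the first enzyme of heme synthesis, at 14.40, 14.84, 16.11, 15.85, 15.88 and 15.52, near the brightest signals of the array at ZT8. All 3 were low on the 2 times of slide 2, and their slide 3 amplitudes were 1.05, 0.33 and 0.24. Cdkn1a, the cell cycle inhibitor p21, ran opposite to Dbp, at 9.64, 8.94, 6.35, 6.48, 8.02 and 9.85. It was not detected at ZT8 and ZT12, and ZT20 was at least 8.81-fold above the floor (amplitude 1.94, and 1.97 on slide 3). A second Cdkn1a probe gave an amplitude of 0.95 and a peak at ZT 23.3.

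Genes of fatty acid oxidation, ketogenesis and PPARalpha targets had 23 members tested, 0 rhythmic by the adjusted limma test and 11 with an unadjusted p under 0.05 (47.8%, against 13.8% of all genes), and 9 with the slide block (39.1%, against 9.74%). All 11 peaked by night, from ZT 12.1 to ZT 21.1, as did 488 of the 1001 genes with such a p. Cidea, a lipid droplet protein, was at 6.49, 7.75, 5.29, 6.11, 8.65 and 10.73, with ZT20 at least 16.2-fold above the floor at ZT8. Cidec, a related droplet protein, was at 6.21, 6.10, 5.57, 6.84, 8.20 and 9.47, and Plin5, a droplet coat protein, at 10.82, 10.47, 9.86, 10.55, 11.17 and 11.58. All 3 were highest at ZT20, on slide 3. Cidea was not detected at ZT0, ZT8 and ZT12. Cidec was not detected at ZT0, ZT4 and ZT8, and at ZT12 on 1 array alone. A lowest time can therefore be read for Plin5 only, at ZT8, also on slide 3. Pdk4, a kinase that restrains pyruvate dehydrogenase, was at 8.85, 9.25, 5.82, 7.96, 8.71 and 9.79, not detected at ZT8. Acot3, an acyl-CoA thioesterase, was at 8.72, 8.31, 10.80, 11.76, 11.61 and 12.10, with an amplitude of 1.89 over 6 times and 0.56 on slide 3. The receptor gene Ppara itself was at 7.72, 8.40, 8.83, 9.15, 9.06 and 8.31 (peak at ZT 12.2 ± 0.74).

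The glycogen list had 9 members tested, 1 rhythmic (Ppp1r3c). Of the 9, 4 had an unadjusted p under 0.05 (44.4%, against 13.8% of all genes), and 4 also with the slide block (44.4%, against 9.74%). The first 4 all peaked by night, as did 488 of the 1001 genes with such a p. Gys2, the liver glycogen synthase, was at 9.27, 9.29, 10.14, 10.41, 10.41 and 9.42 (peak at ZT 12.6 ± 0.64), and Ppp1r3b, another glycogen-targeting subunit, at 10.95, 10.40, 10.40, 9.88, 11.48 and 11.55 (peak at ZT 20.0 ± 1.1). Ppp1r3c peaked at ZT 22.6. Gys2 was thus high at ZT12, where both targeting subunits were lowest. It was as high at ZT16, where Ppp1r3b (11.48) and Ppp1r3c (13.86) were higher again. Of 12 gluconeogenesis and fasting genes 0 were rhythmic by the adjusted limma test. An unadjusted p under 0.05 was found for 5 (41.7%, against 13.8% of all genes), and for 2 with the slide block (16.7%, against 9.74%). Pck1 was at 8.64, 8.97, 9.43, 10.37, 9.97 and 9.66, highest at ZT12. G6pc, the last enzyme of glucose output, was at 12.11, 12.34, 12.61, 13.10, 13.20 and 13.90, highest at ZT20.

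Fatty acid synthesis and elongation had 22 members tested, 1 rhythmic (Elovl3). Of the 22, 5 had an unadjusted p under 0.05 (22.7%, against 13.8% of all genes) and 6 with the slide block (27.3%, against 9.74%). Between times 12 were 2-fold apart (54.5%, against 9.57%). Fasn was at 6.21, 6.81, 8.21, 7.06, 7.39 and 7.89 and Thrsp, a lipogenic factor, at 11.59, 12.60, 14.08, 12.59, 14.53 and 14.06, each lower at ZT12 than at ZT8 and ZT16. Insig2, which retains SREBP precursors in the ER, was at 13.91, 14.02, 11.95, 12.33, 13.28 and 13.93 (amplitude 1.05 ± 0.19, peak at ZT 22.7), lowest at ZT8 like Arntl. Its 2 other probes gave amplitudes of 1.98 and 1.15, with peaks at ZT 22.3 and ZT 22. Lpin1, a phosphatidate phosphatase, was at 8.40, 9.55, 10.38, 10.07, 10.10 and 8.94.

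Cholesterol synthesis and SREBP2 targets had 18 members tested, 0 rhythmic by the adjusted limma test. With the slide block 4 had an unadjusted p under 0.05 (22.2%, against 9.74% of all genes), and without it 3 (16.7%, near the 13.8% of all genes). Those 3 peaked by day: Mvd at ZT 4.11, Stard4 at ZT 8.41 and Hsd17b7 at ZT 9.18. Of 18 bile acid genes 5 had an unadjusted p under 0.05 (27.8%, against 13.8% of all genes) and 6 with the slide block (33.3%, against 9.74%). Abcg5 and Abcg8, the 2 parts of the sterol exporter, were both highest at ZT12 and lowest at ZT20, at 13.67 and 12.62 for Abcg5 and at 13.59 and 11.72 for Abcg8. Cyp8b1, the enzyme that makes cholic acid, was lowest at ZT12 (14.53) and highest at ZT4 (15.67). Cyp7a1, the rate-limiting enzyme of bile acid synthesis, was at 12.38, 12.52, 13.85, 13.56, 13.82 and 13.47, a step between the slides with a slide 3 amplitude of 0.11.

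ER stress and protein folding genes had 20 members tested, 0 rhythmic by the adjusted limma test. Of the 20, 8 had an unadjusted p under 0.05 (40%, against 13.8% of all genes) and 3 with the slide block (15%, against 9.74%). All 8 peaked by day, from ZT 3.04 to ZT 10.9, as did 513 of the 1001 genes with such a p. Hspa5, the ER chaperone BiP, was at 8.35, 9.09, 8.43, 7.64, 8.12 and 8.15, and Creld2, an ER stress-inducible chaperone, at 12.08, 12.75, 11.60, 11.31, 10.82 and 10.29. Syvn1, a ubiquitin ligase of ER-associated degradation, was at 14.19, 14.94, 14.65, 13.89, 13.86 and 13.58. These 3 and Calr (12.32) were highest at ZT4, on slide 2. The exocrine pancreas sum, which follows Cela1 alone since Cpa1 was not detected, was highest at ZT4 too. A part of pancreas RNA in these values was not tested. Chac1 was at 5.68, 8.42, 8.89, 9.59, 7.70 and 8.23, not detected at ZT0. Of 19 heat shock genes 0 had an unadjusted p under 0.05, while 4 were 2-fold apart (21.1%, against 9.57%), and Hspa1a was detected on both arrays at ZT8 (7.46) alone, with 6.96 at ZT16 and 5.0 at ZT12.

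Genes that respond to glucocorticoids had 13 members tested, with 6 at an unadjusted p under 0.05 (46.2%, against 13.8% of all genes), and 3 with the slide block (23.1%, against 9.74%). Mt1, a metallothionein, was at 13.58, 13.42, 15.85, 16.08, 12.81 and 12.16, high at ZT8 and ZT12 on both arrays, where it lay near the brightest signals of the array, and lowest at ZT20. Fkbp5, a co-chaperone of the glucocorticoid receptor, was highest at ZT16 (9.43) and lowest at ZT8 (7.56). In the amino acid list 6 of 26 had an unadjusted p under 0.05 (23.1%, against 13.8% of all genes), and 6 also with the slide block (23.1%, against 9.74%). Ddc (9.32 at ZT12 against 12.05 at ZT4), Gldc and Hal were all lowest at ZT12. In the tubulin and actin list 4 of 16 had such a p (25%, against 13.8%), and 4 also with the slide block (25%, against 9.74%). Tubb2b was rhythmic, and Tubb4b followed the same times, at 12.98, 12.71, 12.03, 11.83, 12.11 and 12.77. Among 45 drug metabolism genes 7 had such a p (15.6%, near the 13.8% of all genes) and 14 with the slide block (31.1%, against 9.74%). Of 18 nuclear receptors 6 had such a p (33.3%, against 13.8%) and 3 with the slide block (16.7%, against 9.74%). On slide 3 alone 0 of the 18 were 2-fold apart, against 4.28% of all genes. Among the 6 was Esr1, which encodes the estrogen receptor alpha, at 7.91, 8.41, 8.63, 9.22, 9.70 and 9.62.

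The lists for ribosomal proteins, the respiratory chain and ribosome biogenesis lay under the share of all genes (13.8%). Of 25 cytosolic ribosomal protein genes and 27 genes of the mitochondrial respiratory chain 0 had an unadjusted p under 0.05 and 0 were 2-fold apart, with median amplitudes of 0.16 and 0.14. Ribosome biogenesis genes had 2 of 21 at an unadjusted p under 0.05 (9.52%) and 0 with the slide block. Autophagy genes had 3 of 20 (15%) and 1 with the block (5%), and clock kinases and ubiquitin ligases had 1 of 9 (11.1%, Usp2) and 1 with the block. Acute phase genes had 2 of 18 (11.1%) and 2 with the block, and 6 were 2-fold apart between times (33.3%, against 9.57%). Iron and metal genes had 2 of 13 (15.4%) and 4 with the block (30.8%, against 9.74%), and 5 were 2-fold apart (38.5%). The growth hormone and STAT5 axis had 3 of 16 (18.8%) and 4 with the block (25%), and 8 were 2-fold apart (50%). Cell cycle and growth arrest had 3 of 15 (20%) and 4 with the block (26.7%), and immediate early and Kruppel-like factors 3 of 12 (25%) and 2 with the block (16.7%). Of 2 cold-inducible genes Rbm3 had an unadjusted p of 0.0298, at 11.22, 10.58, 10.62, 10.57, 11.17 and 11.18.

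**Figure D4:**
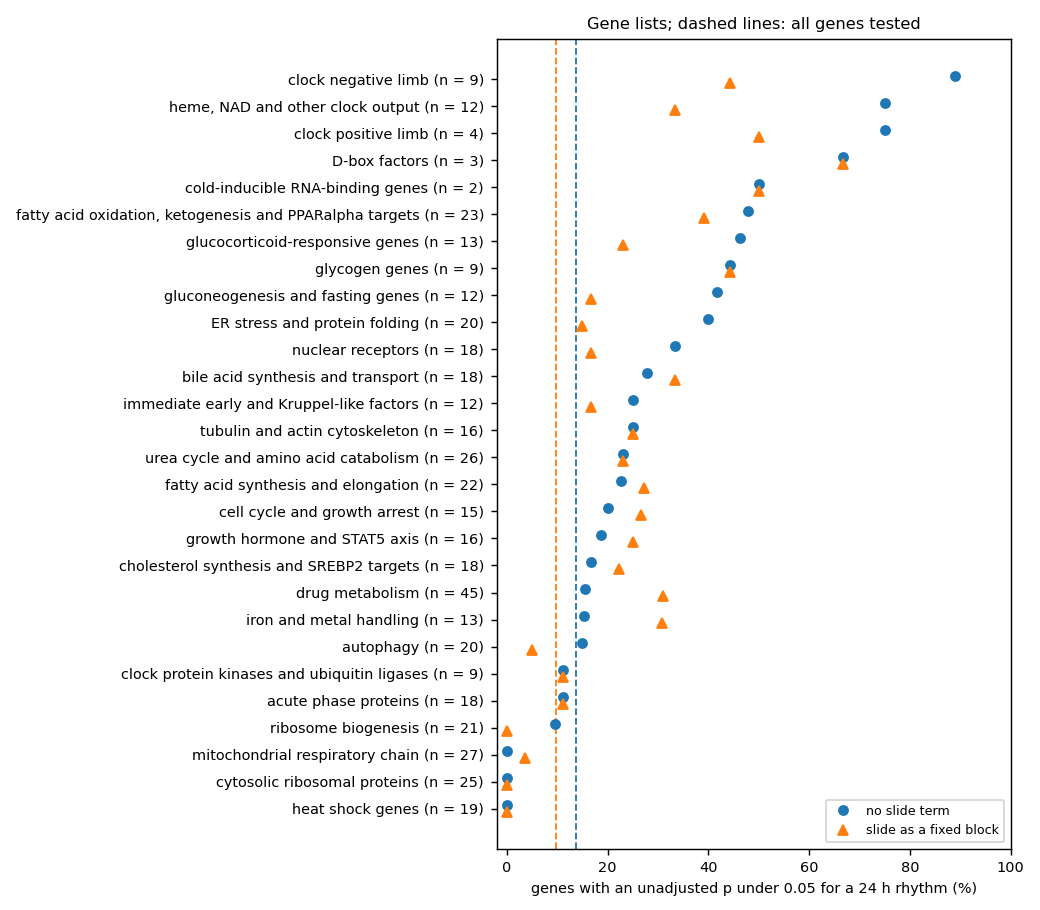
Share of each gene list (rows, with the number of genes tested) that had an unadjusted p under 0.05 for a 24 h rhythm in WT (horizontal axis, percent), without a slide term (circles) and with slide as a fixed block (triangles), and dashed lines for all genes tested (13.8% and 9.74%). The clock negative limb lies furthest to the right, and the heat shock, ribosomal protein and respiratory chain lists lie at 0 without a slide term.

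Several of the largest differences lay at a single time, each with 1 RNA sample, and none of the genes given here for single times passed the test. Hsd3b5, a steroid dehydrogenase of male mouse liver, was at 14.15, 14.47, 12.45, 13.30, 12.15 and 6.99. Its ZT20 arrays (7.16 and 6.82) lay far below all others, 179-fold below ZT4, which lay on slide 2. At the other times of slide 3 it was at 12.15 to 13.30. Cyp4a12b, of a male-biased P450 group, was also lowest at ZT20, at 9.93 against 12.14 to 12.93 at the other times, while its close paralog Cyp4a12a was at 14.41, 13.92, 13.72, 13.33, 14.26 and 13.83, lowest at ZT12. Serpina1e was at 14.35 at ZT20 against 15.94 to 16.13. At the same time Cyp2b9, a P450 with female-biased expression in mouse liver, was highest, at 9.01, 9.40, 11.78, 10.98, 12.11 and 13.43, and Cyp2b13 was at 6.06, 6.49, 8.09, 6.91, 11.33 and 12.09, at least 31.7-fold above the floor at ZT0. Cyp2b23 reached 11.31 and Cyp2b10 11.83 at ZT20. Cyp2b13 was also high at ZT16, so its difference did not lie at ZT20 alone. Cyp2b9, Cyp2b13 and Cyp2b23 had their lowest values at ZT0 and ZT4, on slide 2. For those low values and the 31.7-fold bound slide and time cannot be told apart. On slide 3 alone these genes were lowest at ZT12 and highest at ZT20. These Cyp2b genes are close paralogs, so their probes may share signal. Cyp7b1 (13.11 at ZT20, against 13.80 to 15.23) and Asns (6.19, against 7.77 to 9.51) were lowest at ZT20 too. The stellate cell marker sum was also highest at ZT20 (25200 units, against 21800 to 24800 at the other times, 4 of 6 markers detected, Col1a1 not), and its part in these values was not tested. The hepatocyte sum at ZT20, 302000 units, lay within its range of 295000 to 309000.

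At ZT12 some acute phase genes were high. Saa2 was at 5.70, 5.84, 5.73, 9.52, 7.33 and 6.48, with ZT12 at least 5.35-fold above the floor, and Saa1 was at 8.89 at ZT12 against 5.92 to 7.45. Lcn2 was at 12.05 at ZT12 against 8.95 to 10.42, Serpina3n at 15.40 against 14.09 to 14.36, and Socs3, a feedback inhibitor of cytokine signalling, at 10.46 against 8.41 to 9.90. The neutrophil marker sum was also highest at ZT12, at 1070 units against 574 to 1020 at the other times (2 of 3 markers detected, Ngp not), and its part in these values was not tested. At ZT4 Moxd1, which encodes a monooxygenase-like protein, was at 11.90 and was not detected at any other time, at least 39.0-fold above the floor, and a second Moxd1 probe gave 1.59 in amplitude and a peak at ZT 3.83. Rgs16, a regulator of G protein signalling, was highest at ZT8 and lowest at ZT0 like Dbp, at 5.63, 9.47, 12.20, 10.74, 7.33 and 7.84. It was at least 34.3-fold higher at ZT8 than the floor at ZT0 (amplitude 2.79 ± 0.48, peak at ZT 9.19, limma adjusted p = 0.0902). On slide 3 alone its fitted peak lay at ZT 6.33, against ZT 9.40 for Dbp. With slide as a fixed block it lay at ZT 6.46, against ZT 9.30 for Dbp.

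**Figure D5:**
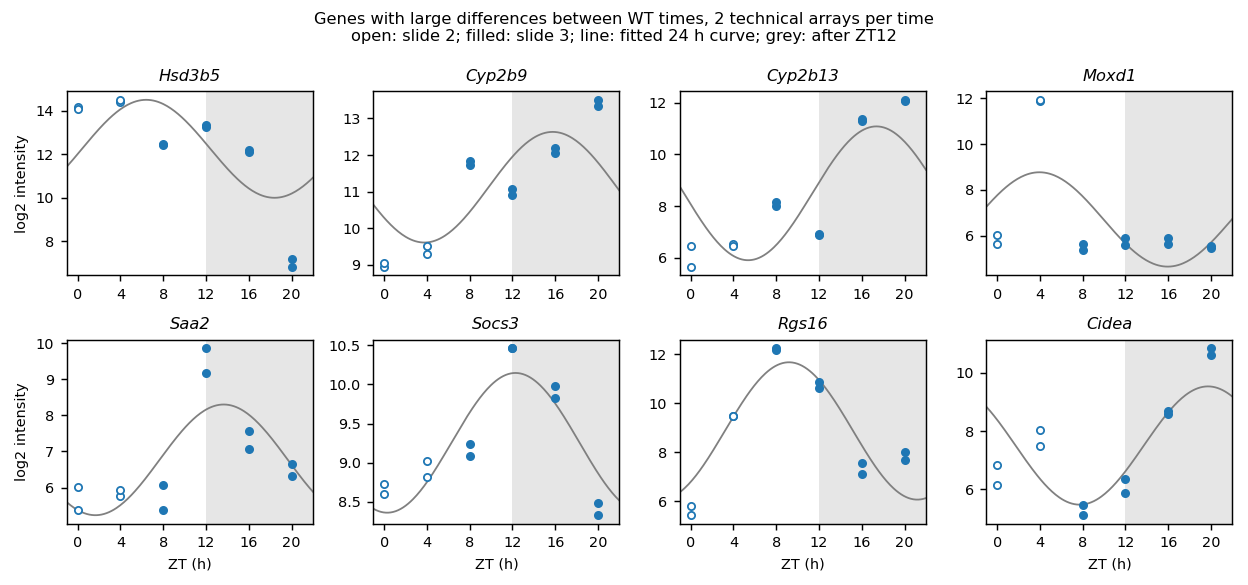
Normalized log2 intensity (vertical axis) against ZT in hours for 8 genes with large differences between WT times, 1 point per array, open for slide 2 and filled for slide 3, with the fitted 24 h curve as a line and grey from ZT12 on. Hsd3b5 is low at ZT20 alone, Moxd1 is high at ZT4 alone and Saa2 is highest at ZT12.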

How the data were processed

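Expression was measured in WT mouse liver on 12 bead arrays. GenomeStudio is the software named in the submitters' processing notes, with no version given. Per the file headers, the deposited signal is a linear intensity per probe, not normalized between arrays, and the deposited detection p-value sets a probe against negative controls, with bead numbers and bead errors beside it. A further deposited table holds intensity values processed by the authors, with medians of 278.76 to 278.97, ranks as in the scanner signal, and a method of normalization that stays unknown.

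All 24 arrays were corrected with normexp (offset 16), quantile normalized and put on the log2 scale (R 4.3.3, limma 3.58.1). A probe was kept if 2 or more of the 12 groups had it detected (p under 0.01) on both their arrays, which held for 10243 of 25697, of which 586 had no symbol in the platform annotation. The probe with the highest mean stood for each of 7272 genes, of which 7270 matched RefSeq. Each genotype had its own 24 h harmonic in 1 limma fit of the 12 averages (residual degrees of freedom 6, prior 3.32), with Benjamini-Hochberg adjustment over all genes. Where a gene was not detected on either array of its low time, the fold is a bound against the lowest detected signal or the signal of the probe itself, whichever was higher. The fit was tested on simulated data.

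Named genes were the clock lists, the rhythmic genes, up to 4 large amplitudes per other list (the largest alone where no member had an unadjusted p under 0.05), the 10 largest differences between times and the 4 largest amplitudes per peak window. The members and lists were chosen with earlier results of these data known. Alas1, Asns, Calr, Cyp4a12a, Cyp4a12b, Cyp7a1, Cyp7b1, Fasn, Gnat1, Lcn2, Nampt, Plin5, Saa1, Serpina1e, Serpina3n, Spon2 and Thrsp were named after their values were seen.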

Additional observations from a re-analysis of the deposited data

How the results depend on the processing

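Against 13 rhythmic genes (7 by day, 6 by night), limma called 27 (12 and 15) with a normexp offset of 50, 43 (18 and 25) without background correction, 123 (38 and 85) with median scaling, 20 (11 and 9) with each genotype normalized alone, 49 (20 and 29) with the authors' processed values, 29 (13 and 16) over probes detected on all 12 WT arrays, 20 (10 by night) over probes detected at 2 or more WT times, 26 (12 and 14) over all probes kept, and 56 (27 and 29) with an intensity trend and robust prior. Slide as a fixed block gave 0 and 0 by day or night (708 genes unadjusted) and slide as a random block 8 (3 by night). The WT values alone gave 0 (914 unadjusted), with 3 residual degrees of freedom. Leaving out 1 of the 2 arrays of every time gave 9 to 10 genes (3 to 4 by night), and leaving out a time gave 2 to 19 (2 to 10 by day and 0 to 12 by night), lowest without ZT12 and highest without ZT4. The cause of these changes was not tested. The replicate numbers of the arrays did not pair them (their deviations correlated at -0.0136 to 0.03), and arrays taken as separate samples gave 1521 genes (844 and 677) with the replicate block and 1655 (915 and 740) without it, which counts technical arrays as independent. The genes 2-fold apart between times in WT numbered 696, against 297 without background correction, 1121 with median scaling, 296 with the authors' values, 438 over probes detected on all 12 arrays, 1457 to 1551 from 1 array per time, 513 to 632 with a time left out, 311 on slide 3 alone and 115 at a 4-fold limit. The median amplitude of the clock genes was 1.13, and 0.92 with an offset of 50, 0.74 without background correction and with the authors' values, 0.72 with the slide block and 0.74 on slide 3. Fitted peaks of genes named by the rule moved to the other side of the day for Cnp (amplitude 0.06, over probes detected on all 12 arrays, which takes its other probe), Klf15 (0.18, without replicate 2), Moxd1 (0.04 without ZT4, and up to 3.06 without another time), for Avpr1a (0.28), Cyp2b23 (1.7), Cyp2b9 (1.39), Irs1 (0.1) and Rps6 (0.19) with the slide block, and for Cyp2b23 (1.75), Cyp2b9 (1.51), Irs1 (0.09), Moxd1 (0.29) and Rps6 (0.19) on slide 3. Of the genes named after their values were seen, the slide block moved the peaks of Fasn (ZT 2.6 with the block, against 12.6 without), Thrsp (1.04 against 14.7), Asns (13.4 against 4.7), Cyp7b1 (13.0 against 5.8), Gstp2 (16.1 against 1.2) and Hamp2 (1.1 against 18.8) by over 6 h. Each of the 13 genes was called under 9 to 21 of 23 alternatives. Signal over background limits genes such as Per3, Fam110c and Npas2, whose low times have only a bound.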

Other observations

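Further genes with large differences between WT times fell outside the gene lists. Those given here were chosen after their values were seen, apart from Slc51b, which was named by the rule for its peak window. Upp2, which encodes a uridine phosphorylase, was at 11.08, 12.25, 13.82, 13.39, 13.71 and 12.14 log2 intensity from ZT0 to ZT20, with a fitted peak at ZT 11.8 ± 0.58 (SE). Cebpb, a transcription factor of liver metabolism and the acute phase, was at 12.21, 12.24, 12.87, 13.86, 13.40 and 12.54, highest at ZT12, the time at which Saa2 and Socs3 were highest. Gnat1, a transducin subunit known from rods, was at 8.19, 10.37, 11.06, 11.29, 9.24 and 8.91, highest at ZT8 and ZT12 like Dbp. Spon2, a secreted matrix protein, was at 12.06, 12.37, 10.45, 10.10, 10.11 and 12.02, low from ZT8 to ZT16. Slc51b, a subunit of the bile acid exporter of the basolateral membrane, was detected on both arrays at ZT20 (7.72) alone, on 1 array at ZT0 and on none between. None of these passed the limma test, with adjusted p values of 0.0513 for Gnat1 and Spon2, 0.0658 for Cebpb, 0.0678 for Upp2 and 0.0735 for Slc51b.

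Mfsd2a, a lipid transporter, was at 10.43, 9.32, 12.63, 13.24, 12.65 and 13.03, and Gstp2, a glutathione transferase, at 11.76, 10.63, 8.05, 8.60, 8.68 and 8.35. Both differed in level between ZT4 and ZT8, where the slide changes, and their slide 3 amplitudes were 0.14 and 0.52, against 1.79 and 1.51 over the 6 times. Hamp2, a hepcidin paralog, was at 11.67, 12.01, 14.14, 10.96, 13.42 and 14.97, so ZT12 was low between higher neighbours, as for Thrsp and Fasn.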
